A study of Mus musculus with 26 samples.

Results

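The transcripts of 10 genes of the NLRP3 inflammasome and of necroptosis were followed in retinas of rd10 mice treated with inhibitors of chromatin-modifying enzymes. The genes are Nlrp3, Pycard, Casp1, Casp4, Il1b, Il18, Ripk1, Ripk3, Mlkl and Casp8. They were taken by symbol from a table of 37991 Ensembl genes, 37205 of which had a symbol, and each symbol matched a single Ensembl gene. The rule names them by function and uses no measured value, but the genes were chosen with earlier results of these data known.

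Inflammasomes are protein platforms that assemble in the cytosol when a sensor detects damage or infection. The sensor NLRP3 binds the adaptor ASC, the product of Pycard, which recruits caspase-1. Caspase-1 then matures the cytokines IL-1β and IL-18 and cleaves gasdermin D, whose fragments open pores in the membrane and kill the cell by pyroptosis. Necroptosis is a lytic death of another kind, in which the kinases RIPK1 and RIPK3 activate the pore-forming protein MLKL when caspase-8 is not active. In the retina, microglia are a well known source of inflammasome components, and death of photoreceptors in inherited degeneration has been linked to both pathways.

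Whole retinas came from rd10 mice (B6.CXB1-Pde6brd10/J), which carry a mutation in the rod phosphodiesterase gene Pde6b and lose their rods, and every group shares that mutation. Mice received intraperitoneal injections from PN9 till PN24 of saline (controls) or of an inhibitor. The experiments compared 2 retinas treated with DZNep with 4 controls, 3 treated with UNC1999 with 3 controls, 2 treated with UNC0642 with 2 controls and 3 treated with Romidepsin with 3 controls. DZNep and UNC1999 are inhibitors of the histone methyltransferase EZH2, UNC0642 of the methyltransferases of histone H3 lysine 9, and Romidepsin was used as an inhibitor of HDAC1. In a further experiment rods were sorted from rd10 mice crossed with B6.Cg-Tg(Nrl-EGFP)1Asw/J, in which the Nrl promoter drives EGFP in rods. These mice received saline (2 samples) or the LSD1 inhibitor GSK2879552 (2 samples). UNC1999 was injected in a diluent with DMSO, polyethylene glycol and Tween. The study gives saline for its RNA-seq controls, but only diluent for the control mice of its stained sections. If the RNA-seq controls received saline, the compound and its diluent cannot be told apart. The labels call the samples biological replicates, and mice of both sexes were used.

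The 22 retina libraries held 13732959 to 36354094 counted reads and the 4 libraries from rods 7289460 to 19864491. The floor of detection was set at 3 counts, which is 0.0825 to 0.218 CPM (counts scaled to a library of fixed size) in a retina and 0.151 to 0.412 CPM in sorted rods. All 21 microglia markers were detected in every retina, with at least 11 counts. In the DZNep experiment, control 3 was the only library with reads of the Y-linked gene Ddx3y (1024 counts). In the UNC1999 experiment, control 1 was the only library without them and the only one with high Xist (12464 counts). Every UNC0642 library had high Xist (8429 to 17647 counts) and 0 counts of Ddx3y. In the Romidepsin experiment Ddx3y was read in controls 1 and 2 and treated retina 2, and Xist was high in the other libraries. DZNep-treated retina 2 held more lens transcripts than the other retina libraries of that experiment (Crybb2, 188 counts against at most 16). Values without 1 of the libraries named for DZNep or UNC1999 are given below for Casp1 after DZNep and for 5 genes after UNC1999.

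Promoter sequences were taken from RefSeq (GRCm38.p6, 250 bases before to 50 after the transcript start, 5′ to 3′ on the strand of the gene), and all 10 genes had an entry. Those of 4 genes are shown because the results turn on them. Casp1 was the 1 gene that passed the test in any comparison, Casp4 is its neighbour on chromosome 9, Pycard had the next smallest p-value, and Ripk1 was the gene with most counts in sorted rods. Capitals mark matches, on either strand, to the NF-kB consensus, the IRF core AANNGAAA, the PU.1 site GAGGAAGT, the AP-1 site TGANTCA or the TATA box TATAAA.
Casp1, GRCm38.p6 chr9:5298267-5298566, plus strand: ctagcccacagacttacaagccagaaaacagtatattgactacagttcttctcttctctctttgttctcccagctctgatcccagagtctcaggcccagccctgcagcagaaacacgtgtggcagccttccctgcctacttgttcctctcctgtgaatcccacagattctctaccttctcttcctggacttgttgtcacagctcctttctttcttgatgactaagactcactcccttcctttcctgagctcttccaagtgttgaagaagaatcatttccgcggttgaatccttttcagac
Casp4, GRCm38.p6 chr9:5308599-5308898, plus strand: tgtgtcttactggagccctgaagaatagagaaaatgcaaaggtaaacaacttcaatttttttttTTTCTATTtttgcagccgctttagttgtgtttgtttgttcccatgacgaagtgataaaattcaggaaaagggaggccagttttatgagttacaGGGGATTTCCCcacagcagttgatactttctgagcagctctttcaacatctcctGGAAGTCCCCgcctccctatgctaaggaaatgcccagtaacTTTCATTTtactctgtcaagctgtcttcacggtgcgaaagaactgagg
Pycard, GRCm38.p6 chr7:127993818-127994117, minus strand: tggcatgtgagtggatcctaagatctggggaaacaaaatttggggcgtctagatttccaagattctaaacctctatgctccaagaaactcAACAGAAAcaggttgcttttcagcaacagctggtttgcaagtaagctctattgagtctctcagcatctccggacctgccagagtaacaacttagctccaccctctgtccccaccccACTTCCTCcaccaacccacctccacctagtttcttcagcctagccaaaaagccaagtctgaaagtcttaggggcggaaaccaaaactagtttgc
Ripk1 (start 2), GRCm38.p6 chr13:34002624-34002923, plus strand: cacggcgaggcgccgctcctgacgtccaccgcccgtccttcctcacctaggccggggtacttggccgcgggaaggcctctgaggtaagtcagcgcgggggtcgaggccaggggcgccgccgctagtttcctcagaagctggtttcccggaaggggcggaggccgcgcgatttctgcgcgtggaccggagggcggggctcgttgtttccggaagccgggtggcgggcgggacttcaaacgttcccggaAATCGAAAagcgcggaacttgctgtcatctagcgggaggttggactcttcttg

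The Casp1 promoter held none of these letters. The first start of Casp4, which is shown, held the NF-kB consensus in 2 places, 1 with overlapping matches from base −93 and 1 at base −39. It held the IRF core at bases −186 and 3 relative to the start. Relative to the second start of Casp4, which is not shown, the same matches lay from base −104 and at bases −50, −197 and −9. The Pycard promoter held the IRF core at base −160 and the PU.1 letters at base −44. The second start of Ripk1 held the IRF core at base −3, and its 300 bases contained 36 CpG dinucleotides against 3 for Casp1 and a median of 7 over all promoters. The first start of Ripk1, which is not shown, held no match and 22 CpG dinucleotides. Over the 32851 promoters of that length, 8.46% held the NF-kB consensus, 23.9% the IRF core, 3.2% the PU.1 letters, 7.81% the AP-1 letters and 13.6% the TATA box. In these 4 promoters matches overlapped only between forms of the NF-kB consensus. A match describes letters and is not a measured binding site.

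Of the 10 genes, Casp1 was the only one that passed the main test in any of the 5 comparisons, and it fell after DZNep. Pycard narrowly missed it after UNC1999 and passed there by other tests, as given below. Changes were tested with the quasi-likelihood test of edgeR, and p-values were corrected after Benjamini and Hochberg across the genes of each comparison. A gene passed at an adjusted p-value under 0.05. After DZNep, 7 genes had enough counts to be tested, 1 passed as lower and 0 as higher, while 9.72% of all 16477 genes tested passed as lower and 12.9% as higher. By every treated library lying below every control, 2 of the 7 stood apart, against 21.5% of all genes, and 0 stood above, against 24.4%. The median log2 fold change (treated over control) of the 7 was −0.38, while that of all genes was −0.00057. Of the 7, 5 were below 0, beside 50.1% of all genes.

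After UNC1999, 0 of the 7 genes tested passed by edgeR's quasi-likelihood test, where 0.501% of all genes passed as higher and 0.101% as lower. An unadjusted p-value under 0.05 was found for 2 of them, Pycard and Nlrp3, beside 23.6% of all genes, and the likelihood ratio test and DESeq2 each called 1, Pycard. Over all 15775 genes those 2 tests called 1641 and 1443. For 2 genes every treated library lay below every control (13.5% of all genes) and for 0 above (13.9%). The median log2 fold change of the 7 was −0.70, beside −0.002 over all genes. Of the 7, 6 were below 0, beside 50.4% of all genes.

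After UNC0642 all 10 genes could be tested and 0 passed, as did 0% of all genes as higher and 0% as lower, although 14.7% of all genes had an unadjusted p-value under 0.05. An unadjusted p-value under 0.05 was found for 1 of them, Il18, and 0 were called by the likelihood ratio test or DESeq2. Over all 16321 genes those tests called 145 and 144. For 2 genes the treated libraries lay below the controls (25.2% of all genes) and for 0 above (26.9%). The median log2 fold change of the 10 was −0.05, and 6 were below 0, beside 50.3% of all genes.

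After Romidepsin 0 of the 8 genes tested passed by edgeR's quasi-likelihood test, where 0.573% of all genes passed as higher and 0.174% as lower. The likelihood ratio test and DESeq2 called 0, and 0 had an unadjusted p-value under 0.05. Over all 16049 genes those tests called 1185 and 1074, and 19.4% had such a p-value. The groups overlapped for all 8, whereas 12.5% of all genes had every treated library below the controls and 13.5% above. The median log2 fold change of the 8 was −0.22, and 7 were below 0, beside 51.1% of all genes.

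In sorted rods only Il18 and Ripk1 had enough counts to be tested. After GSK2879552 0 of the 2 passed, as did 0% of all genes in either direction, and 0 had an unadjusted p-value under 0.05 or were called by the likelihood ratio test or DESeq2. Groups overlapped for both, whereas 17.3% of all genes lay below and 15.9% above in every treated library. An unadjusted p-value under 0.05 was found for 4.91% of all genes. The likelihood ratio test and DESeq2 called 71 and 43 of all 14478 genes.

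**Figure D1:**
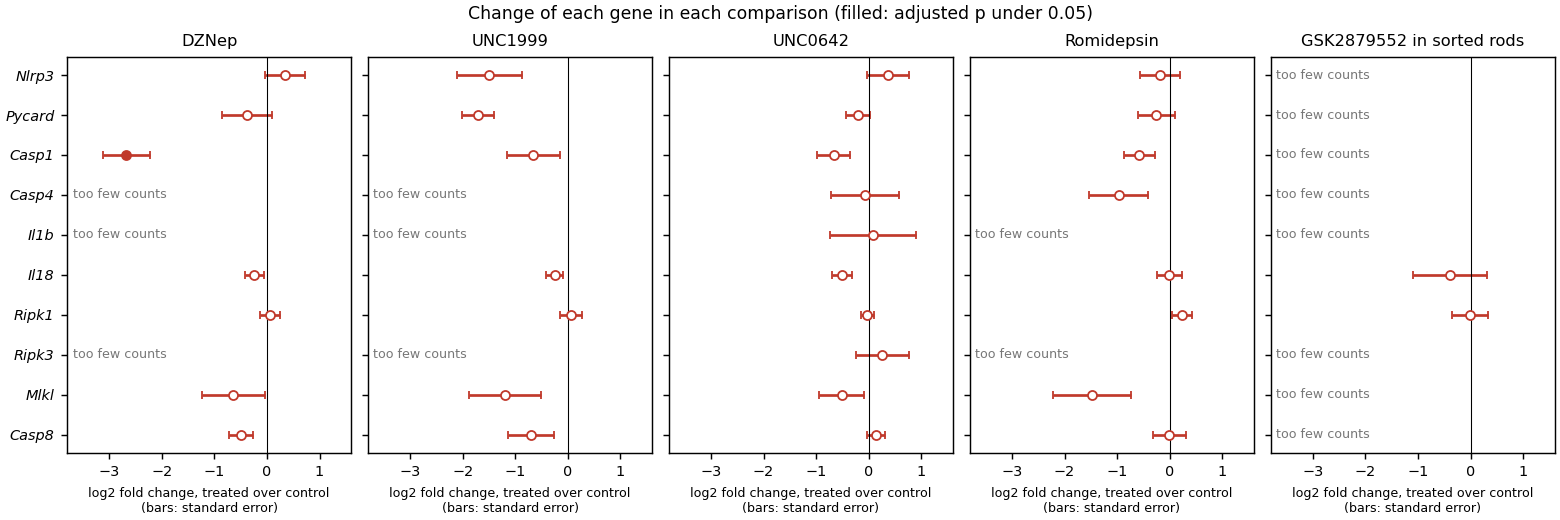
Log2 fold change of each gene, treated over control, in the 5 comparisons, with its standard error as a bar. The filled point marks an adjusted p-value under 0.05. Only Casp1 after DZNep, at −2.67, is filled, and genes with too few counts to be tested are named as such.

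Casp1 (ENSMUSG00000025888, NCBIM37 chromosome 9 from 5298517 to 5307265) encodes the protease at the centre of the inflammasome. In the DZNep experiment the 4 controls had 31, 30, 55 and 37 counts and the 2 treated retinas 7 and 5, although treated retina 1 was the most deeply sequenced library. Both treated retinas lay far below every control. Controls averaged 1.68 ± 0.568 CPM (SD, n = 4) and treated retinas 0.288 ± 0.119 CPM (SD, n = 2), so Casp1 fell with a log2 fold change of −2.67 and a standard error of 0.451 (edgeR, adjusted p = 0.00424). Without control 3, the library with Ddx3y reads and the highest Casp1, the log2 fold change was −2.41 (edgeR, adjusted p = 0.00706). Without treated retina 1 the call was lost at −2.16 (edgeR, adjusted p = 0.0905), and without treated retina 2, the one with lens transcripts, it was kept at −3.01 (adjusted p = 0.0153). Over all alternatives the adjusted p-value ran from 1.89e-06 to 0.0905.

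Markers of microglia moved in the same direction in these libraries. Their summed level was 364 to 754 CPM in the 4 controls and 282 to 318 CPM in the 2 DZNep-treated retinas. All 21 were lower and 5 passed, with a median log2 fold change of −0.81 beside the −2.67 of Casp1. The part of microglia in the Casp1 result was not tested. In whole tissue, fewer cells of a type and less RNA per cell cannot be told apart. The 10 rod markers all rose, from summed levels of 17820 to 29912 CPM to 54936 and 56492 CPM.

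Casp1 did not pass in the other retina experiments. UNC1999 controls had 56, 71 and 21 counts and treated retinas 8, 43 and 39, so the groups overlapped (log2 fold change −0.66 ± 0.501, standard error). UNC0642 controls had 198 and 91 counts and treated retinas 87 and 46, which is 6.53 ± 2.27 CPM (SD, n = 2) against 4.10 ± 1.06 CPM (SD, n = 2). There both treated retinas lay below both controls in CPM, but the difference did not pass (−0.67 ± 0.310, standard error; edgeR, adjusted p = 0.362). Romidepsin controls had 29, 60 and 43 counts and treated retinas 21, 37 and 38, with overlapping groups (−0.58 ± 0.296, standard error). Against its own controls, Casp1 had a log2 fold change below 0 in all 4 retina experiments. With 1 library left out, it ran from −1.02 to −0.31 after UNC1999, −0.98 to −0.26 after UNC0642 and −0.74 to −0.35 after Romidepsin, and with the 9 controls of the library series named G-981 it was 0.39 after UNC0642.

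Casp4 (ENSMUSG00000033538, NCBIM37 chromosome 9 from 5308828 to 5336783) encodes the caspase that senses cytosolic lipopolysaccharide, and it starts 1562 bases after the end of Casp1. It was a low gene, with 1 to 64 counts per retina. In the DZNep experiment its counts were 7, 5, 5 and 6 in controls and 4 and 1 in treated retinas, too few to be tested. In CPM both treated retinas lay below the controls, at 0.0955 ± 0.0299 CPM (SD, n = 2) against 0.252 ± 0.0443 CPM (SD, n = 4). After UNC1999 it had 15, 8 and 7 counts in controls and 3, 8 and 9 in treated retinas, again too few. After UNC0642 the controls, 64 and 15, and treated retinas, 43 and 12, each held 1 high and 1 low library (log2 fold change −0.07 ± 0.641, standard error). After Romidepsin it had 6, 20 and 11 counts in controls and 6, 11 and 3 in treated retinas (−0.97 ± 0.568, standard error; edgeR, adjusted p = 0.385), and the value ran from −1.56 to −0.49 with 1 library left out.

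**Figure D2:**
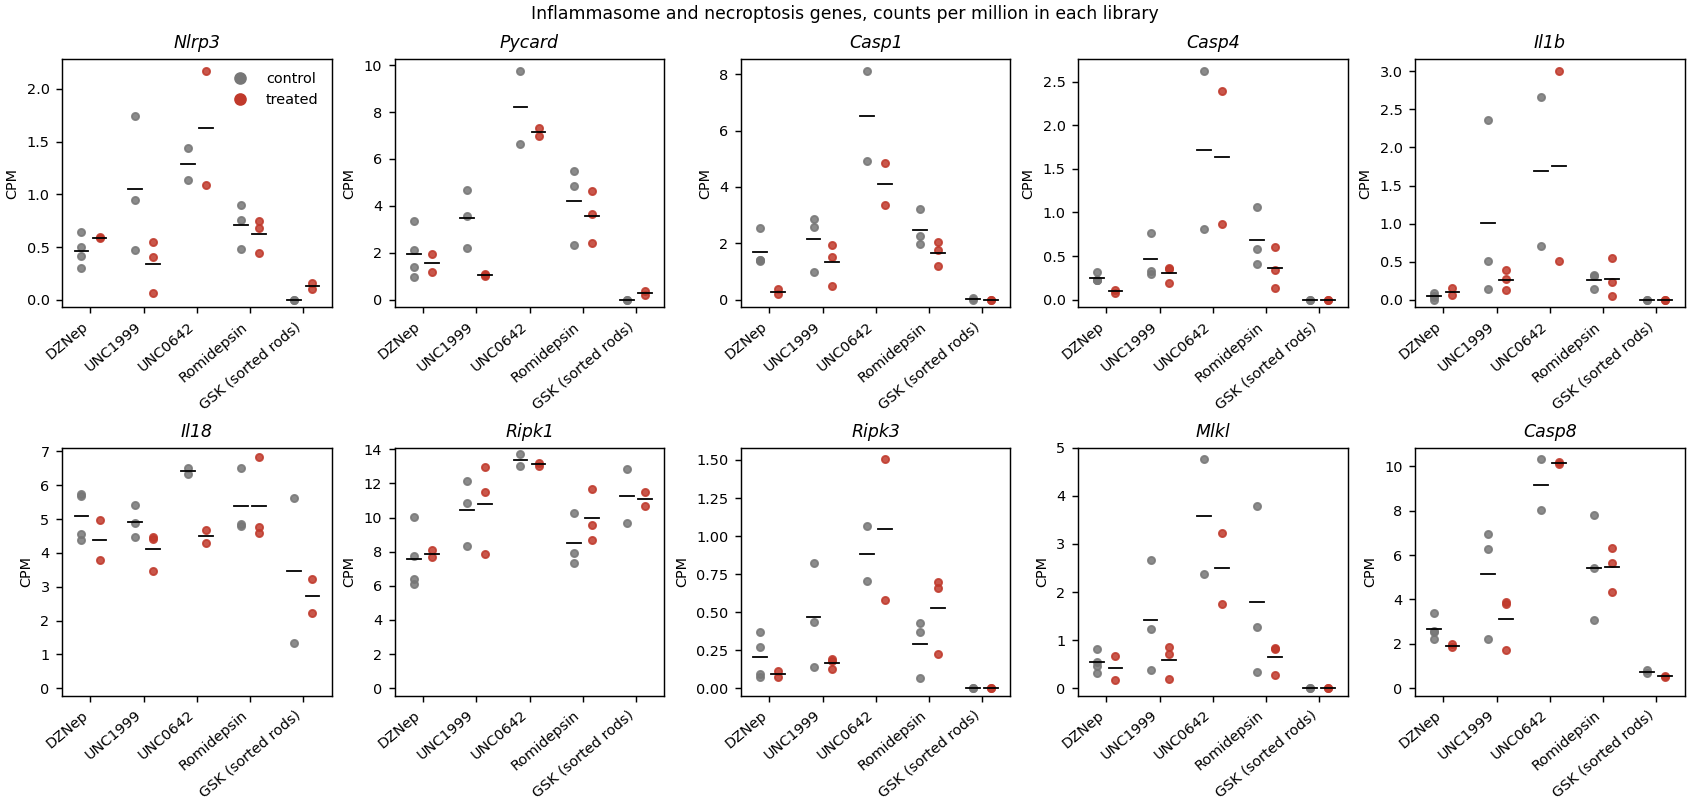
Level of each gene in each of the 26 libraries, in CPM scaled within its experiment (vertical axis, starting at 0 and different between panels), by experiment (horizontal axis). Grey points are control and red points treated libraries, and black lines mark group means. Casp1 is at most 0.372 CPM in the DZNep-treated retinas and at least 1.38 CPM in their 4 controls, and the UNC0642 libraries hold the highest levels of most genes.

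Nlrp3 (ENSMUSG00000032691, NCBIM37 chromosome 11 from 59355070 to 59380458), the sensor, had 1 to 39 counts per retina. In the UNC1999 experiment the controls had 34, 26 and 10 counts and the treated retinas 1, 9 and 14. The groups overlapped narrowly, and the change did not pass (log2 fold change −1.49 ± 0.624, standard error; edgeR, adjusted p = 0.199). Without control 1, the library with high Xist and the most Nlrp3, it was −0.98. In the DZNep experiment the controls had 11, 9, 14 and 8 counts and treated retinas 20 and 8, the 20 in the library of greatest depth (0.34 ± 0.376, standard error). UNC0642 controls had 35 and 21 counts and treated retinas 39 and 15 (0.36 ± 0.400, standard error). Romidepsin controls had 11, 9 and 17 counts and treated retinas 12, 8 and 16, close to each other throughout (−0.18 ± 0.382, standard error).

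Pycard (ENSMUSG00000030793, NCBIM37 chromosome 7 from 135135617 to 135137381) encodes the adaptor ASC. In the UNC1999 experiment the controls had 91, 98 and 46 counts and the treated retinas 17, 24 and 26. Every treated retina lay below every control, and the treated retinas were close to each other. The mean was 3.47 ± 1.24 CPM (SD, n = 3) in controls and 1.05 ± 0.0376 CPM (SD, n = 3) after UNC1999, a log2 fold change of −1.71 with a standard error of 0.301 that missed the threshold (edgeR, adjusted p = 0.0533). It passed by the likelihood ratio test (adjusted p = 6.91e-05), by DESeq2 (adjusted p = 0.000354), with no filter on low counts, in the fit of all 22 retinas and without control 3. In that order these settings called 1641, 1443, 1024, 1445 and 2707 of all genes, against 95 in the main test. Over all alternatives the adjusted p-value of Pycard ran from 6.91e-05 to 0.210.

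The summed microglia markers were 376 to 674 CPM in the UNC1999 controls and 216 to 280 CPM after UNC1999. All 21 markers were lower, 2 at an adjusted p-value under 0.05, with a median log2 fold change of −1.21. Their part in the Pycard values was not tested. The markers of other leukocytes summed to 28.9, 9.52 and 5.38 CPM in the controls, with the 28.9 in control 1, the library with high Xist, and to 2.48 to 3.23 CPM after treatment. Of 8 markers of the retinal pigment epithelium 6 passed as higher, and 0 of 10 Müller glia markers passed. Without control 1 the log2 fold changes were −1.46 for Pycard, −0.42 for Casp1 and −0.43 for Casp8, none of which passed.

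Pycard in the other retinas gave smaller differences. DZNep controls had 74, 21, 46 and 36 counts and treated retinas 41 and 26, inside the range of the controls (−0.38 ± 0.475, standard error). UNC0642 controls had 238 and 123 counts and treated retinas 131 and 96 (−0.21 ± 0.221, standard error). Romidepsin controls had 34, 91 and 104 counts and treated retinas 65, 84 and 52 (−0.26 ± 0.351, standard error). In all 3 of these experiments the groups overlapped.

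Il1b (ENSMUSG00000027398, NCBIM37 chromosome 2 from 129190306 to 129196875), the precursor of IL-1β, was a low gene that differed widely between retinas of the same group. Its counts in UNC0642 controls were 65 and 13 and in treated retinas 54 and 7, 1 high and 1 low library in each group (log2 fold change 0.08 ± 0.818, standard error). In the UNC1999 experiment the controls had 46, 14 and 3 counts and the treated retinas 2, 6 and 10, with the 46 in control 1, the library with high Xist. The DZNep experiment had 0 to 2 counts in every library and the Romidepsin experiment 1 to 10, so neither could be tested. Il1b overlaps an antisense transcript, Gm14047, which had a mean of 0.8 counts per library.

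Il18 (ENSMUSG00000039217, NCBIM37 chromosome 9 from 50383378 to 50389942), the precursor of IL-18, was steadier. UNC0642 controls had 154 and 120 counts and treated retinas 84 and 59. Both treated retinas lay below both controls, at 4.49 ± 0.276 CPM (SD, n = 2) against 6.41 ± 0.121 CPM (SD, n = 2), and the change did not pass over all genes (−0.51 ± 0.183, standard error; edgeR, adjusted p = 0.319). UNC1999 controls had 95, 149 and 94 counts and treated retinas 56, 98 and 113, which in CPM put every treated retina just below every control (−0.25 ± 0.162, standard error). DZNep controls had 125, 99, 95 and 150 counts and treated retinas 130 and 67 (−0.24 ± 0.184, standard error). Romidepsin controls had 71, 122 and 91 counts and treated retinas 81, 124 and 102, a log2 fold change of −0.0032 with a standard error of 0.230.

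Ripk1 (ENSMUSG00000021408, NCBIM37 chromosome 13 from 34094232 to 34127039) encodes the kinase that stands between survival and death signals of the TNF receptor. Its changes were small, with log2 fold changes of 0.06, 0.06, −0.03 and 0.23 after DZNep, UNC1999, UNC0642 and Romidepsin and standard errors of 0.123 to 0.207. Treated retinas and controls overlapped in all 4 experiments. DZNep controls had 220, 133, 168 and 168 counts and treated retinas 263 and 109, and UNC0642 controls had 334 and 241 and treated retinas 237 and 179. Its exons overlap those of Serpinb6a on the opposite strand (mean of 350.1 counts) and of Gm17084 on the same strand (3.1 counts), and whether reads were counted by strand is not stated, so the Ripk1 values are uncertain to that degree.

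Ripk3 (ENSMUSG00000022221, NCBIM37 chromosome 14 from 56403833 to 56407694), the kinase that phosphorylates MLKL, had 1 to 27 counts per retina and could be tested only in the UNC0642 experiment. There the controls had 26 and 13 counts and the treated retinas 27 and 8 (0.26 ± 0.508, standard error). UNC1999 controls had 16, 12 and 3 counts and treated retinas 2, 4 and 5. Romidepsin controls had 1, 8 and 7 counts and treated retinas 4, 12 and 15, and DZNep controls 6, 2, 8 and 2 and treated retinas 4 and 1. In every one of the 4 experiments the groups overlapped.

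Mlkl (ENSMUSG00000012519, NCBIM37 chromosome 8 from 113835697 to 113862077) encodes the executor of necroptosis. Romidepsin controls had 5, 71 and 24 counts and treated retinas 5, 15 and 18. The control mean rested on control 2, and the log2 fold change of −1.48 ± 0.736 (standard error; edgeR, adjusted p = 0.311) was −0.34 without it. UNC1999 controls had 52, 34 and 8 counts and treated retinas 3, 19 and 18, with the 52 in control 1, and the log2 fold change of −1.20 was −0.45 without that library. DZNep controls had 18, 12, 7 and 12 counts and treated retinas 6 and 9 (−0.64 ± 0.592, standard error), and UNC0642 controls 116 and 44 and treated retinas 58 and 24 (−0.51 ± 0.428, standard error). None of the 4 passed.

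Casp8 (ENSMUSG00000026029, NCBIM37 chromosome 1 from 58852218 to 58904347) encodes the protease that starts apoptosis and restrains necroptosis. DZNep controls had 75, 55, 48 and 68 counts and treated retinas 63 and 27. In CPM both treated retinas lay below the 4 controls, at 1.92 ± 0.121 CPM (SD, n = 2) against 2.69 ± 0.511 CPM (SD, n = 4), and the change did not pass (−0.49 ± 0.226, standard error; edgeR, adjusted p = 0.151). UNC1999 controls had 136, 172 and 47 counts and treated retinas 28, 83 and 99, overlapping with control 3 (−0.70 ± 0.439, standard error). UNC0642 controls had 252 and 148 counts and treated retinas 183 and 139 (0.14 ± 0.174, standard error), and Romidepsin controls 45, 146 and 103 and treated retinas 77, 115 and 121 (−0.01 ± 0.318, standard error).

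Whether the effects differed between inhibitors was asked in 1 fit of all 22 retinas, as the difference of 2 treatment effects each taken against its own controls. No experiment shares a control with another. Of 60 differences (10 genes in 6 pairs of inhibitors), 0 passed by edgeR's quasi-likelihood test and 9 stood at an unadjusted p-value below 0.05. The 9 lay in Casp1, Pycard, Nlrp3 and Ripk3, and pairs that share an inhibitor are not independent. The share of all genes at that unadjusted level was not computed, so the 9 are not read as an excess. The smallest adjusted p-value was 0.143. Among all 17274 genes of that fit, 0.00579% differed between DZNep and UNC1999, 0.0232% between DZNep and UNC0642, 0.289% between DZNep and Romidepsin, 0.0116% between UNC1999 and UNC0642, 5.11% between UNC1999 and Romidepsin and 0.0174% between UNC0642 and Romidepsin.

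The log2 effect on Casp1 was lower after DZNep than after UNC1999 by an estimate of −2.01 (95% interval −3.60 to −0.43; edgeR, adjusted p = 0.410). Against Romidepsin the difference was −2.09 (95% interval −3.67 to −0.51; adjusted p = 0.215) and against UNC0642 −1.996 (95% interval −3.62 to −0.37; adjusted p = 0.284). These intervals leave out 0 but do not allow for the number of genes, so the fall of Casp1 is not shown to be particular to DZNep. For Pycard, UNC1999 less Romidepsin gave −1.46 (95% interval −2.65 to −0.27; edgeR, adjusted p = 0.143). For Nlrp3, DZNep less UNC1999 gave 1.85 (95% interval 0.32 to 3.37; edgeR, adjusted p = 0.430).

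The level of a gene also differed between experiments whose retinas received saline. With all 22 retinas scaled together, the 2 UNC0642 groups had the highest means of the 8 groups for 9 of the 10 genes, the exception being Il18. UNC0642 was also the only retina experiment in which every library had high Xist and no Ddx3y reads, and the part of sex was not tested. Casp1 was 6.08 ± 2.13 CPM (SD, n = 2) in UNC0642 controls and 1.71 ± 0.576 CPM (SD, n = 4) in DZNep controls. Neighbouring groups in the order of means mostly could not be told apart by their ranges, which overlapped in all but 8 of 70 pairs. The summed microglia markers were also highest there, at 1111 and 1597 CPM in UNC0642 controls and 657 and 1042 CPM after UNC0642, and the rod markers lowest, at 8773 and 8950 CPM and 9165 and 13793 CPM. In the Romidepsin experiment microglia markers summed to 720 to 1165 CPM in controls and 556 to 769 CPM after treatment. The part of these cells in the levels was not tested.

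**Figure D3:**
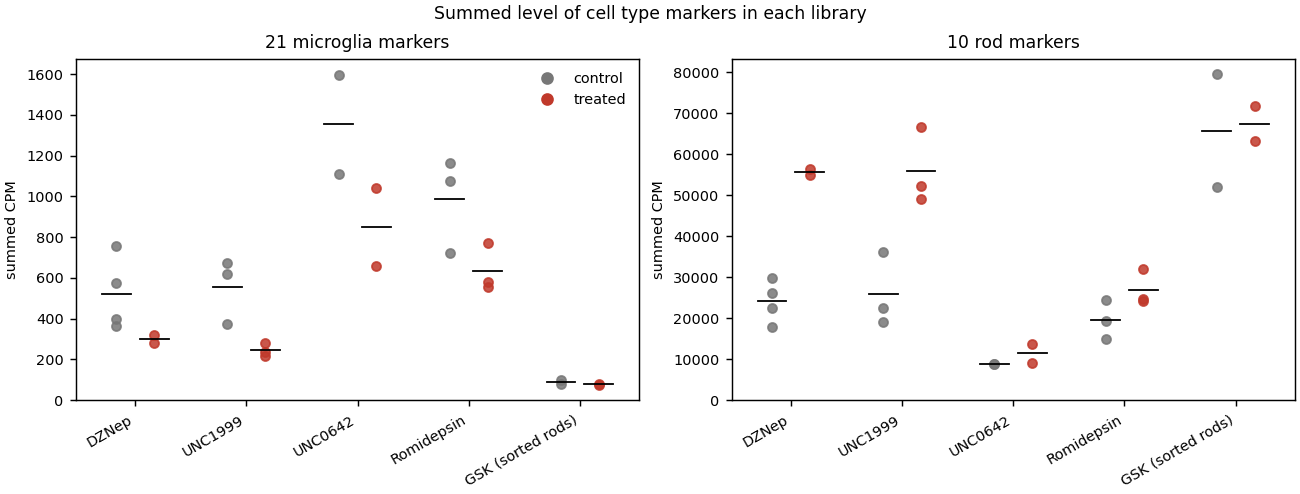
Summed CPM (vertical axes, starting at 0) of 21 microglia markers (left) and 10 rod markers (right) in each library, by experiment. Grey points are controls, red points treated libraries and black lines group means. Microglia sums of treated retinas lie below all their controls after DZNep, UNC1999 and UNC0642 and overlap with them after Romidepsin.

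Around these 10 genes, 53 others of the same pathways were counted in 5 lists: inflammasome sensors and regulators, the pyroptotic pore, IL-1 family ligands and receptors, inputs to necroptosis, and checkpoints of RIPK1. After DZNep 39 could be tested, and 9 fell and 4 rose, beside 9.72% of all genes that passed as lower and 12.9% as higher. Their median log2 fold change was −0.13, and 25 were below 0, beside 50.1% of all genes. In the other 4 comparisons 0 passed by edgeR's quasi-likelihood test, with an unadjusted p-value under 0.05 for 13 of 41 after UNC1999, 11 of 46 after UNC0642, 9 of 39 after Romidepsin and 1 of 31 in sorted rods. Over all genes those shares were 23.6%, 14.7%, 19.4% and 4.91%.

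Of the 3 lists around the inflammasome, 7 genes fell and 1 rose after DZNep. Those that fell were 3 of 7 sensors and regulators, 2 of 3 pore genes and 2 of 5 IL-1 family genes tested. Over all genes 9.72% passed as lower and 12.9% as higher. In the same libraries 9 of 10 Müller glia markers were lower and 8 passed, at a median of −0.40 on the log2 scale, and their levels summed to 9679 to 9941 CPM in controls and 6744 and 7562 CPM after DZNep. Markers of the retinal pigment epithelium moved the other way, with 5 of 8 passing as higher and a median of 1.21. The part of these cells was not tested. Among 7 tested sensors and regulators, Naip5, a sensor of bacterial flagellin that can share reads with its close paralogs, fell with a log2 fold change of −2.15 (edgeR, adjusted p = 0.0196), with controls at 1.00 ± 0.324 CPM (SD, n = 4) and treated retinas at 0.183 ± 0.154 CPM (SD, n = 2). The ATP receptor gene P2rx7, whose activation triggers NLRP3, fell by 0.97 on the log2 scale and Txnip, the thioredoxin inhibitor, by 0.60, while Nek7, the kinase that binds NLRP3, rose by 0.17. Gsdmd, the gasdermin that caspase-1 cleaves, fell with a log2 fold change of −0.999 (edgeR, adjusted p = 0.0291), with controls at 2.39 ± 0.535 CPM (SD, n = 4) and treated retinas at 1.16 ± 0.171 CPM (SD, n = 2). Gsdme fell by 0.37 on the same scale. The receptor chains Il1r1 and Il1rap fell by 0.53 and 0.31. The medians of the first 3 lists were −0.60, −0.37 and −0.47. After UNC1999, where none of these genes passed, log2 fold changes were −1.47 for Naip5, −0.74 for P2rx7, −0.98 for Txnip, −1.03 for Gsdmd and −0.38 for Gsdme. Il1rap was at −0.26, while Nek7 (−0.15) and Il1r1 (0.03) had the sign opposite to that after DZNep. These changes are not shown to be particular to DZNep.

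Genes around RIPK1 moved in both directions after DZNep. Among 9 tested inputs to necroptosis, Tnfrsf1a, the TNF receptor, fell with a log2 fold change of −0.37 (edgeR, adjusted p = 0.0133) and its adaptor Tradd by −0.50 (adjusted p = 0.0220). Of 15 checkpoint genes, 3 rose and 0 fell, with a median of 0.03. Over all genes 12.9% passed as higher and 9.72% as lower. Tnfaip3, which encodes the ubiquitin-editing enzyme A20, rose with a log2 fold change of 1.02 (edgeR, adjusted p = 0.00115), at 145 ± 23.5 CPM in controls (SD, n = 4) and 295 ± 2.84 CPM in treated retinas (SD, n = 2). Xiap, an inhibitor of caspases, rose with a log2 fold change of 0.61 (edgeR, adjusted p = 0.000639), at 251 ± 9.42 CPM in controls (SD, n = 4) and 384 ± 30.6 CPM in treated retinas (SD, n = 2), and Birc2 rose by 0.19. After UNC1999, where none of them passed, log2 fold changes were 0.84 for Tnfaip3, 0.57 for Xiap, −0.53 for Tradd and −0.14 for Tnfrsf1a. Birc2 was at −0.02 there, the sign opposite to that after DZNep. In sorted control rods Tnfaip3 stood at 728 ± 33.9 CPM (SD, n = 2). The study's methods give another library kit for sorted rods, while the sample labels give the kit of the retinas. The rod markers that moved with these genes are given above, and their part in the rise was not tested.

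**Figure D4:**
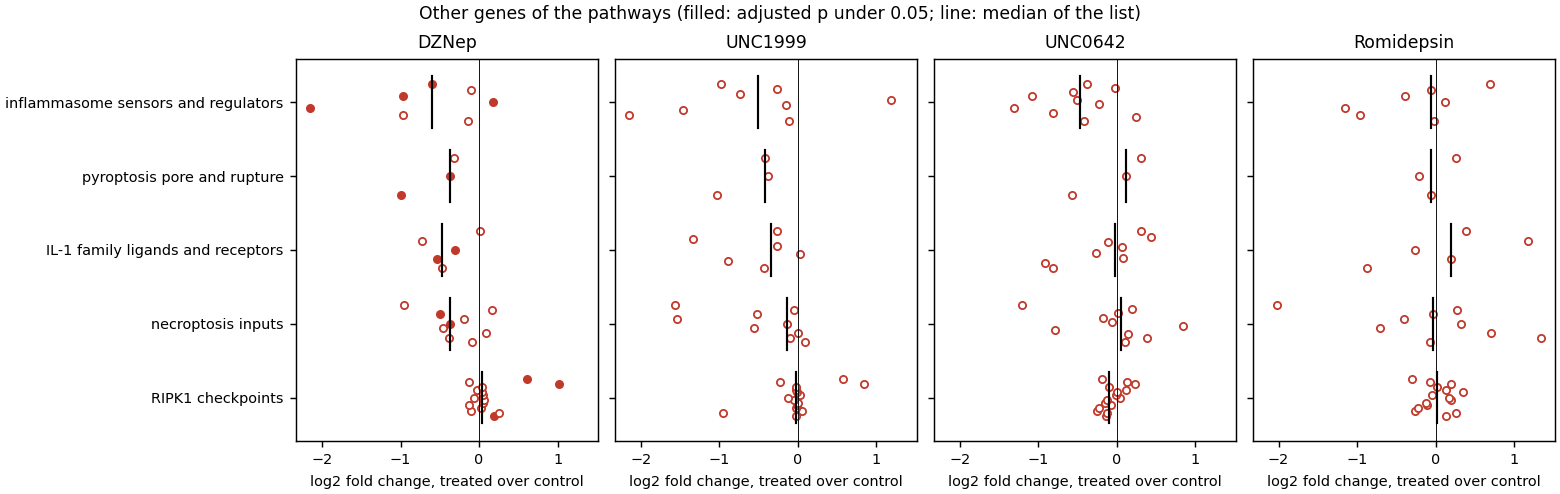
Log2 fold change, treated over control, of the other pathway genes in the 4 retina experiments, by list. Each point is a gene, filled where the adjusted p-value is under 0.05, and the line is the median of the list. Filled points appear after DZNep only, where 9.72% of all genes passed as lower and 12.9% as higher. After UNC1999 those shares were 0.101% and 0.501%.

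Sorted rods were used to ask which of the 10 genes could be read in those samples, which also held RNA of other cells (given below). Casp4, Il1b, Ripk3 and Mlkl had 0 counts in all 4 libraries, a total of 54250480 counts, which allows up to 0.0553 CPM, and Casp1 had 1 count in all. Nlrp3 had 0 counts in both controls and 3 and 1 after GSK2879552, and Pycard 0 in both controls and 7 and 2 after GSK2879552. No fold is given for either, since the filter on low counts left them out. Casp8 had 6 and 12 counts in controls and 11 and 5 after GSK2879552.

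Ripk1 and Il18 were the exceptions. Ripk1 had 96 and 166 counts in control rods and 221 and 106 in treated rods, or 11.3 ± 2.202 CPM (SD, n = 2) and 11.1 ± 0.564 CPM (SD, n = 2), with a log2 fold change of −0.02 ± 0.339 (standard error; edgeR, adjusted p = 0.999). Il18 had 10 and 96 counts in control rods and 62 and 22 in treated rods, so the controls lay on either side of the treated samples (−0.39 ± 0.698, standard error; edgeR, adjusted p = 0.990). Without 1 control or the other, the Il18 value took opposite signs, from −1.03 to 1.03.

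Per length of exons, in RPKM (CPM divided by the exon length in kilobases), Ripk1 had a mean level of 1.82 RPKM in the 4 sorted samples and 1.54 ± 0.391 RPKM (SD, n = 12) in control retinas. Il18 had 4.41 RPKM in sorted rods and 7.58 ± 0.967 RPKM (SD, n = 12) in control retinas. The others were far lower in sorted rods, with Casp8 at 0.232 RPKM against 1.80 ± 0.937 RPKM and Pycard at 0.101 RPKM against 2.76 ± 1.65 RPKM (SD, n = 12). In control retinas Il18 had the highest level per length of the 10 and Casp4 the lowest, at 0.173 ± 0.169 RPKM (SD, n = 12), within the spread of Nlrp3 (0.199 ± 0.108 RPKM) and Ripk3 (0.203 ± 0.155 RPKM). Sorted rods and retinas differ in strain, in dissociation and in the library kit that the methods give but the labels do not, so these levels are set side by side without a test.

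The sorted samples carried the rod markers at 51906 to 79683 CPM. Their 21 microglia markers summed to 75.4 to 98.5 CPM, and 0 of them were at 0 in every sorted library. Among them Csf1r had 136 to 457 counts and Aif1 3 to 6. Of 10 markers of other leukocytes, 6 were at 0 throughout. The 8 cone markers summed to 1237 to 3490 CPM in the sorted samples and 520 to 2188 CPM in the retinas. The 10 Müller glia markers summed to 291 to 505 CPM in the sorted samples and 5244 to 11100 CPM in the retinas. The part of these cells in the counts of Ripk1, Il18 and Casp8 was not tested. The part of remaining microglia in the few counts of Pycard and Nlrp3 was not tested.

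**Figure D5:**
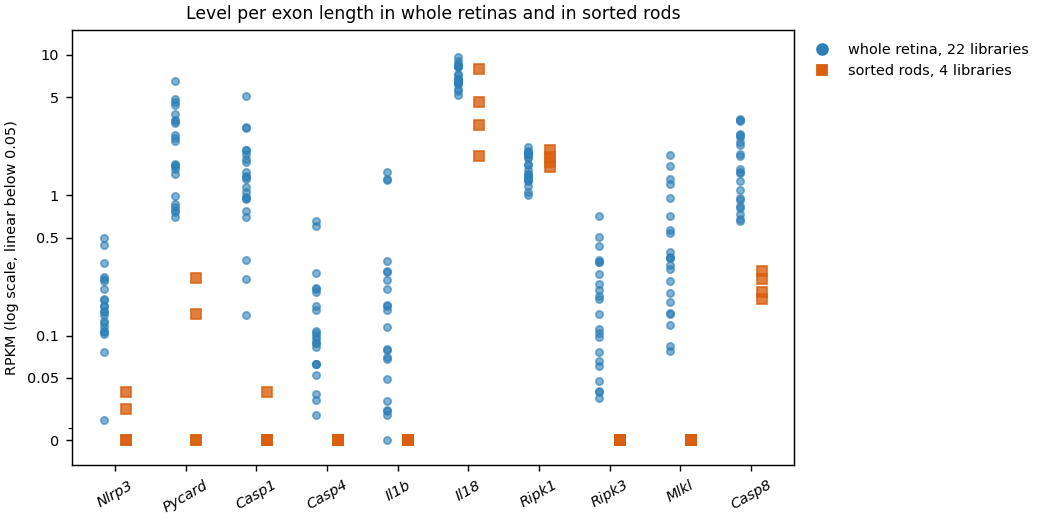
Level per exon length in RPKM (vertical axis, logarithmic above 0.05 and linear below) of each gene in 22 whole retinas (blue circles) and 4 samples of sorted rods (orange squares). Ripk1 lies in the same range in both materials, and Casp4, Il1b, Ripk3 and Mlkl lie at 0 in all 4 sorted samples.

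Genes whose pattern over the 22 retinas was most like that of each gene were ranked by Pearson's r of log2 CPM after the control mean of the experiment was subtracted, among 17274 genes. Pycard was closest to Ctsh (r = 0.946), Tspo (0.928) and Gltp (0.926). Casp8 was closest to Sdcbp (0.960), Cnn3 (0.948) and Nek6 (0.945). Casp1 was closest to Prr5l (0.874), Sept8 (0.842) and H2-Q6 (0.842), and Mlkl to Cep55 (0.887), Lat2 (0.865) and Fam111a (0.863). Il18 and Ripk1 had weaker matches, led by Gm11557 (0.781) and Sgms2 (0.828). These are descriptions over libraries that share experiments and cell composition. Casp4, Nlrp3, Il1b and Ripk3 had a mean under 20 counts and were not ranked.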

How the data were processed

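RNA-seq libraries of 22 whole retinas and 4 samples of sorted rods were analysed, grouped by the titles of the samples. Genotype and compound labels that count upward from library to library were read as rd10 and as the compound of the title. The authors used BBDuk for trimming, HISAT2 2.2.1 for alignment to NCBIM37 and HTSeq 0.11.2 with the genes of Ensembl release 67 for counting. Whether strand was used in counting is not given in the sources used here. The deposited values are raw read counts of 37991 genes, without normalization, and no column lacked a sample.

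Symbols and positions came from GENCODE M1 on the same build. In each experiment, counts were filtered with filterByExpr, scaled by TMM and tested with the quasi-likelihood test of edgeR 4.0.16 (R 4.3.3), with Benjamini-Hochberg adjustment over all genes tested. The likelihood ratio test, which the authors used, was an alternative. P-values measure the spread between the retinas sampled, 2 to 4 per group. CPM values are scaled by TMM within an experiment, and RPKM divides CPM by the summed exon length (the 22 retinas scaled together). Standard errors are the log2 fold change over the root of the F statistic. Reads shared with near-identical or overlapping genes could be split by the counting. Intervals of differences use the t quantile of the fit, and floors cover counting error only.

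All 10 genes are named in every comparison, other pathway genes where they passed, and, for genes with a mean of at least 20 counts, the 3 genes most alike. The genes and lists were chosen with earlier results of these data known. The other alternatives were DESeq2 1.42.0, RLE size factors, no filter, a minimum of 10 counts in each library, a replicate block, an added log2 fold threshold of 1, 1 fit of all 22 retinas, the 9 controls of 1 library series, and leaving out each library. The tests were tested on simulated data. Figures were made with matplotlib 3.10.9.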

Additional observations from a re-analysis of the deposited data

Results flagged for a closer look

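In the 4 DZNep controls, 1 library stood far from the others for Casp1. Control 3 had 55 counts (2.54 CPM) where the others had 30 to 37, and the gap to its nearest neighbour was 0.970 of the range of the group, above Dixon's critical value for 4 libraries. This library was also the only one of its experiment with reads of Ddx3y. Its part in the level of Casp1 was not tested, and the log2 fold change without it was −2.41.

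For Casp4 the library that stood apart was control 1, at 0.318 CPM where the others had 0.229 to 0.231 CPM, with a gap of 0.985 of the range, on counts of 5 to 7 in the 4 controls, where the difference between libraries is of 1 or 2 reads. Each of the 10 genes was tested in that group, and chance flags about 1 in 20 such groups.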

How the results depend on the processing

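Over 430 recomputed values of the genes tested, 381 kept their direction and their side of the threshold, 42 changed sign (34 of them for changes under 0.3 in size on the log2 scale, and 0 of them past the threshold), 6 newly passed and 1 no longer passed. After DZNep 1 gene passed, and 0 passed with at least 10 counts required in every library, where Casp1 was not tested. After UNC1999 0 passed, and 1, Pycard, passed by the likelihood ratio test, DESeq2, no filter and the fit of all 22 retinas. With 1 library left out the counts were 0 to 1 after DZNep and 0 to 2 after UNC1999, where Pycard and Casp8 (edgeR, adjusted p = 0.0487) passed without control 3. In the other comparisons 0 passed under every alternative, and 0 of the differences between inhibitors. Over all genes, 95 passed after UNC1999 in the main test and 2707 without control 3. By the likelihood ratio test, DESeq2, no filter and the fit of 22 retinas, 1641, 1443, 1024 and 1445 passed. The causes were not tested.

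Changes of sign were as follows, as log2 fold changes. Ripk1 after DZNep was −0.013 with a block for replicate and −0.17 with the 9 controls of the library series named G-981, and Nlrp3 after DZNep was −0.25 with those controls. With the same 9 controls, UNC0642 gave 0.39 for Casp1, 1.13 for Casp4, 0.75 for Pycard, 0.45 for Ripk1 and 0.57 for Mlkl. After Romidepsin, Il18 was 0.0026 with no filter, 0.012 with at least 10 counts in every library and 0.0060 in the fit of 22 retinas, and Casp8 was 0.00082, 0.0091 and 0.0012 in the same settings, 0.064 with the block and 0.094 with the 9 controls.

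With 1 library left out, values ran from −0.70 to 0.0026 for Pycard, −0.031 to 0.22 for Ripk1 and −1.59 to 0.32 for Mlkl after DZNep, and from −0.10 to 0.23 for Ripk1 after UNC1999. After UNC0642 they ran from −1.01 to 1.04 for Casp4, −0.25 to 0.75 for Nlrp3, −0.45 to 0.10 for Pycard, −1.75 to 1.37 for Il1b, −0.064 to 0.0077 for Ripk1, −0.62 to 0.74 for Ripk3, −1.05 to 0.083 for Mlkl and −0.027 to 0.34 for Casp8. After Romidepsin they ran from −0.40 to 0.042 for Nlrp3, −0.21 to 0.16 for Il18 and −0.28 to 0.35 for Casp8, and in sorted rods from −0.21 to 0.19 for Ripk1 and −1.03 to 1.03 for Il18.

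Replicate numbers were not taken as pairs in the main test. Where both groups held 2 libraries, deviations within a group mirror each other. The correlations there amount to 1 number and cannot decide whether samples were paired. For UNC0642 it was 0.213 for same-numbered and −0.213 for differently numbered libraries. Same-numbered libraries had correlations of their deviations of −0.278, 0.23 and −0.0403 in the UNC1999 experiment, 0.206, −0.048 and −0.277 with Romidepsin, −0.207 and 0.0206 with DZNep, 0.213 in both UNC0642 pairs and −0.0777 in sorted rods. With the block, Casp1 after DZNep was −2.37 (edgeR, adjusted p = 0.0265) and Pycard after UNC1999 −1.64 (edgeR, adjusted p = 0.0558), and no call on the 10 genes changed. Over all genes, 3734 passed after DZNep and 1415 with the block (95 and 30 after UNC1999, 120 and 97 after Romidepsin, 0 and 589 after UNC0642 and 0 and 3 in sorted rods, without and with the block). Over every alternative these counts, in that order, ran from 1082 to 4537, 4 to 2707, 0 to 2987, 0 to 1646 and 0 to 210.

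Depth limits the low genes. Casp4, Il1b and Ripk3 fell short of the filter after DZNep and UNC1999, Il1b and Ripk3 after Romidepsin, and 8 genes in sorted rods. Leaving out a library leaves 1 library in a group where the group has 2, and that library is then assumed to vary like the others.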
